A study of Arabidopsis thaliana with 6 samples.

Results

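The genes described here encode proteins of the small, 40S subunit of the cytosolic ribosome of Arabidopsis thaliana. They were chosen by locus: 60 nuclear loci of 24 small-subunit proteins were listed, and a locus was measured where the platform annotation gave it a probe set (a group of array probes read as 1 value) of its own. This held for 33 loci of 17 proteins, among 13355 genes with such a probe set and 22746 probe sets in all. A further 11 loci shared 6 probe sets with other genes, and 16 were unnamed here. The unnamed ones include all listed genes of SA, S5, S6, S15a and S18, so these proteins have no value below. Which protein a locus encodes was taken from background knowledge. The RefSeq table of the TAIR10.1 assembly names 14 of the 60 loci for that protein, but it names all 33 measured loci by locus alone.

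By its title the series concerns how the pectic matrix of the wall is assembled. Suspension-cultured cells labelled as given 0.1 mM isoxaben, a herbicide that blocks cellulose synthesis, were set against control cultures with no treatment in their labels, with 3 Affymetrix ATH1 arrays of each. Both had the same culture medium, Murashige and Skoog salts supplemented with sucrose, kinetin and naphthalene acetic acid, a synthetic auxin. The labels give no ecotype, no length of treatment and no sign of whether the cells had been adapted to isoxaben, so each change is a difference between these cultures. Nor do they say whether replicates came from separate cultures. The p-values therefore rest on the scatter among these 3 and 3 samples, and that scatter may be technical.

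The small subunit threads the mRNA and reads its codons against transfer RNA. Its head, platform and body are built on 18S ribosomal RNA, and most of its proteins bind that RNA while it matures in the nucleolus. In Arabidopsis each of these proteins is encoded by several nuclear genes, whose proteins can be close to identical. Ribosomal protein transcripts are among the most abundant of growing cells, and their synthesis is known to follow the rate of growth. Probes of close paralogs can also bind one another's RNA, so the measured changes of paralogs may be more alike than the true ones.

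All 32 tested 40S genes rose in isoxaben cultures and none fell, where 56.6% of all tested probe sets changed in either direction. The test was limma on log2(signal + 16), with Benjamini-Hochberg adjustment over 13648 probe sets and a threshold of 0.05, and the highest adjusted p among the 32 genes was 0.00728. Over all tested probe sets, 29.4% were called higher and 27.2% lower. The median log2 change of the 32 genes was 1.36, a 2.57-fold rise, beside a median of 0.00824 over all tested probe sets. The quartiles were 1.00 and 1.79, and the range was 0.56 to 2.71. A rise of at least 2-fold was called for 24 of the 32, or 75% of them, beside 11.0% of all tested probe sets. For each of the 32 genes every isoxaben array was above every control array, which held for 32.8% of all tested probe sets. These are bulk cultures, in which more cells of a kind and more RNA per cell cannot be told apart, and a signal is relative to the rest of its array.

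**Figure D1:**
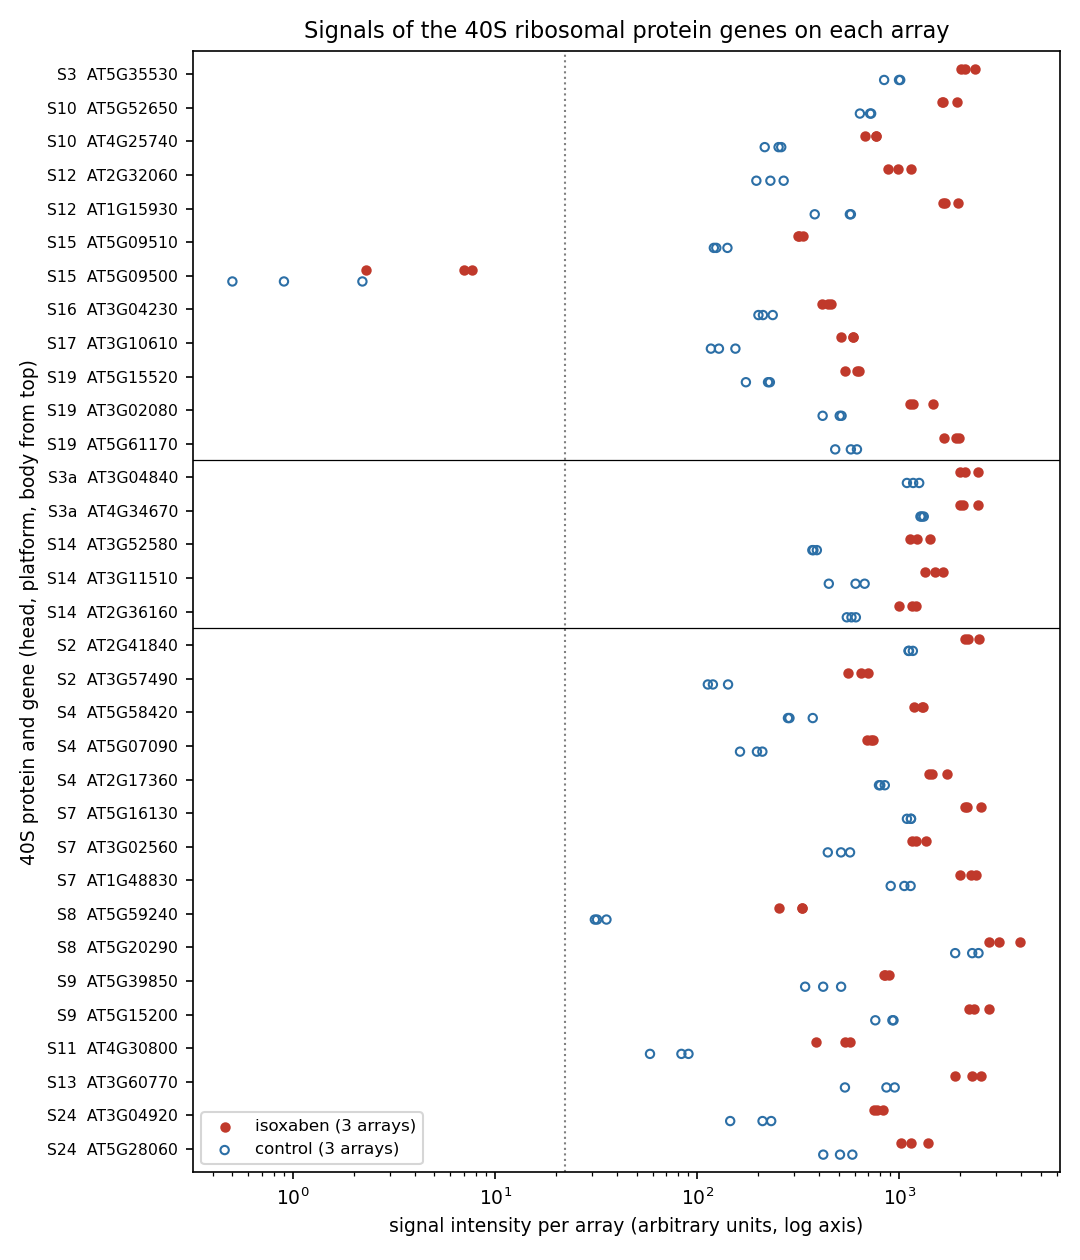
Signal of each of the 33 measured 40S genes on the 3 isoxaben arrays (filled) and the 3 control arrays (open), on a log axis, with the genes grouped by head, platform and body of the subunit. The dotted line marks the filter signal of 22.1, and of the 33 genes only AT5G09500 lies below it.

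The 3 arrays of a group lay closer to each other than to the other group for these genes. Relative to the control mean of each gene, the median log2 deviation over the 32 genes was 1.22, 1.32 and 1.48 on isoxaben replicates 1, 2 and 3, against -0.16, 0.09 and 0.04 on control replicates 1, 2 and 3. Isoxaben replicate 3 had the highest signal of the 6 arrays for 24 of the 33 measured genes, and control replicate 1 the lowest for 23. Control replicate 1 also stood apart in its labels, with 7023 outlier cells against 160 to 613 on the other 5 arrays. Without it, 32 of 32 genes were still called higher, with a median of 1.25. For isoxaben replicate 1 the source name holds another code, DCB, where the title and the treatment protocol say isoxaben. Without that array the count was again 32 of 32, with a median of 1.43. The titles split the arrays into 2 sets. The first set, 1 array of each group, gave a median of 1.46 with all 32 genes above 0. The second, 2 of each group, gave 1.31, and all 32 genes were called there.

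The signals summed over the 33 genes made up 1.44%, 1.50% and 1.65% of all signal on isoxaben replicates 1, 2 and 3, against 0.606%, 0.706% and 0.690% on control replicates 1, 2 and 3. Every isoxaben share was more than 2 times the highest control share. The means were 1.53% ± 0.11 in isoxaben and 0.668% ± 0.0537 in control cultures (SD, n = 3 each). A two-sided exact permutation test gave p = 0.1, and 6 arrays in equal groups cannot give less.

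Proteins of the head were represented by 11 tested genes, whose log2 changes had a median of 1.45 and spanned 0.97 to 2.04. The S12 gene AT2G32060, whose protein sits on the beak of the head, changed most among them. It had signals of 878.1, 984.2 and 1144.4 on isoxaben arrays, against 195.9, 229.9 and 267.4 on control arrays (log2 change 2.04 ± 0.14, SE; limma adjusted p = 1.63e-06). The other S12 gene, AT1G15930, rose by 1.77 ± 0.16. The S17 gene AT3G10610 had signals of 516.0, 588.3 and 587.9 with isoxaben, against 127.9, 154.3 and 116.7 in control (1.97 ± 0.12; limma adjusted p = 1.07e-06). All isoxaben signals of both genes were more than 3 times every control signal.

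S10 binds at the side of the head near the channel where mRNA enters. Its gene AT4G25740 had signals of 762.2, 762.1 and 677.5 on isoxaben arrays, against 215.5, 252.4 and 260.1 on control arrays, a log2 change of 1.54 ± 0.11. Its other measured gene, AT5G52650, had 1627.7, 1643.4 and 1919.9 with isoxaben, against 637.5, 724.6 and 716.0 in control, a log2 change of 1.30 ± 0.10. The groups did not overlap for either gene. S19, needed in yeast and human cells for the 18S rRNA precursor to mature, had 3 tested genes with log2 changes of 1.36 to 1.70. The S3 gene AT5G35530, whose protein lines the mRNA entry channel, rose by 1.18 ± 0.11. The S16 gene AT3G04230, of the protein whose tail reaches the transfer RNA in the P site, rose by 0.97 ± 0.11, the smallest change of the head.

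S15 reaches towards the A site, where codons are read, and 2 of its genes, neighbours in the TAIR10.1 annotation, were measured apart. AT5G09510 had signals of 315.9, 318.0 and 332.1 on isoxaben arrays, against 120.7, 140.9 and 124.1 on control arrays (log2 change 1.23 ± 0.11; limma adjusted p = 7.44e-06). Its neighbour AT5G09500 had signals of 7.0, 7.7 and 2.3 with isoxaben, against 2.2, 0.5 and 0.9 in control. All 6 values lie under the filter signal of 22.1, so AT5G09500 was left out of the test. It was the only one of the 33 measured genes to be left out, and it was not called when no filter was set.

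On the platform, where mRNA leaves the subunit, 5 genes of S3a and S14 were tested, and their log2 changes had a median of 0.93 and spanned 0.73 to 1.68. The S3a gene AT3G04840 had signals of 2101.2, 2005.8 and 2451.8 on isoxaben arrays, against 1252.8, 1169.7 and 1089.1 on control arrays, a log2 change of 0.89 ± 0.10. AT4G34670, the other S3a gene, had 2065.4, 1983.5 and 2435.0 with isoxaben, against 1270.9, 1291.3 and 1319.7 in control, a log2 change of 0.73 ± 0.10 (limma adjusted p = 0.000156). The groups were apart for both S3a genes, whose log2 changes were under 1.

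The S14 genes differed more from one another. AT3G52580 had signals of 1215.1, 1125.6 and 1424.2 on isoxaben arrays, against 375.4, 390.3 and 370.8 on control arrays, a log2 change of 1.68 ± 0.11. AT3G11510 had 1335.0, 1496.8 and 1641.1 with isoxaben, against 447.3, 672.9 and 606.7 in control, a log2 change of 1.36 ± 0.15. AT2G36160 had 992.0, 1204.2 and 1156.2 with isoxaben, against 579.1, 608.7 and 549.2 in control, a log2 change of 0.93 ± 0.10. Each of the 3 genes had every isoxaben array above every control array.

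The body was represented by 16 tested genes, whose log2 changes had a median of 1.36 and the widest range of the 3 regions, 0.56 to 2.71. Both ends of that range were S8 genes. S8, like S4, S7, S11 and S24, joins the precursor of the subunit early in yeast. AT5G59240 had signals of 254.7, 328.8 and 329.9 on isoxaben arrays, against 31.9, 35.5 and 31.1 on control arrays (log2 change 2.71 ± 0.13; limma adjusted p = 2.35e-07). Its mean signal was 9.27 times higher with isoxaben, and its control signals lay just above the filter signal of 22.1. The log2 change was 3.17 with a pseudocount of 1 and 1.92 with 64.

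AT5G20290, the other S8 gene, had signals of 2788.4, 3124.4 and 3967.6 on isoxaben arrays, against 1888.1, 2291.8 and 2462.7 on control arrays (log2 change 0.56 ± 0.14; limma adjusted p = 0.00728). Its groups did not overlap, and its change was the smallest among the 32 genes. It was also among the brightest probe sets measured. Only 4, 1 and 1 probe sets were brighter than it on isoxaben replicates 1, 2 and 3, against 72, 32 and 20 on control replicates 1, 2 and 3.

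The S11 gene AT4G30800 had signals of 386.7, 535.3 and 571.1 on isoxaben arrays, against 58.3, 83.4 and 90.4 on control arrays (log2 change 2.46 ± 0.18; limma adjusted p = 2.49e-06). Its lowest isoxaben signal was more than 4 times its highest control signal. It was the only S11 gene measured apart.

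S2 lies with S3 and S9 along the mRNA entry channel. Its gene AT3G57490 had signals of 699.4, 646.0 and 555.1 with isoxaben, against 112.7, 141.9 and 119.4 in control, a log2 change of 2.21 ± 0.13. AT2G41840 had 2185.8, 2120.7 and 2480.1 with isoxaben, against 1165.6, 1109.2 and 1115.6 in control, a log2 change of 0.99 ± 0.09. Both genes were apart between the groups. The S9 genes AT5G15200 and AT5G39850 rose by 1.47 ± 0.12 and 1.00 ± 0.14.

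S4 has 3 measured genes, 2 with large changes and 1 with a smaller one. AT5G58420 had signals of 1292.6, 1176.2 and 1314.0 on isoxaben arrays, against 285.7, 372.5 and 280.8 on control arrays, a log2 change of 1.97 ± 0.12. AT5G07090 had 741.6, 690.9 and 720.4 with isoxaben, against 209.8, 162.6 and 197.2 in control, a log2 change of 1.84 ± 0.12. AT2G17360 had 1397.6, 1450.9 and 1710.4 with isoxaben, against 792.4, 846.6 and 804.0 in control, a log2 change of 0.88 ± 0.10. All 3 were apart between the groups.

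The remaining body genes lay between these. The S7 genes had log2 changes of 0.99 to 1.26 and the S24 genes 1.20 and 1.94. AT3G60770, of the protein S13, which contacts the large subunit in the joined ribosome, rose by 1.52 ± 0.20. Between replicates, the coefficient of variation of the signal over the 32 genes had a median of 9.73% in isoxaben and 11.9% in control cultures.

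**Figure D2:**
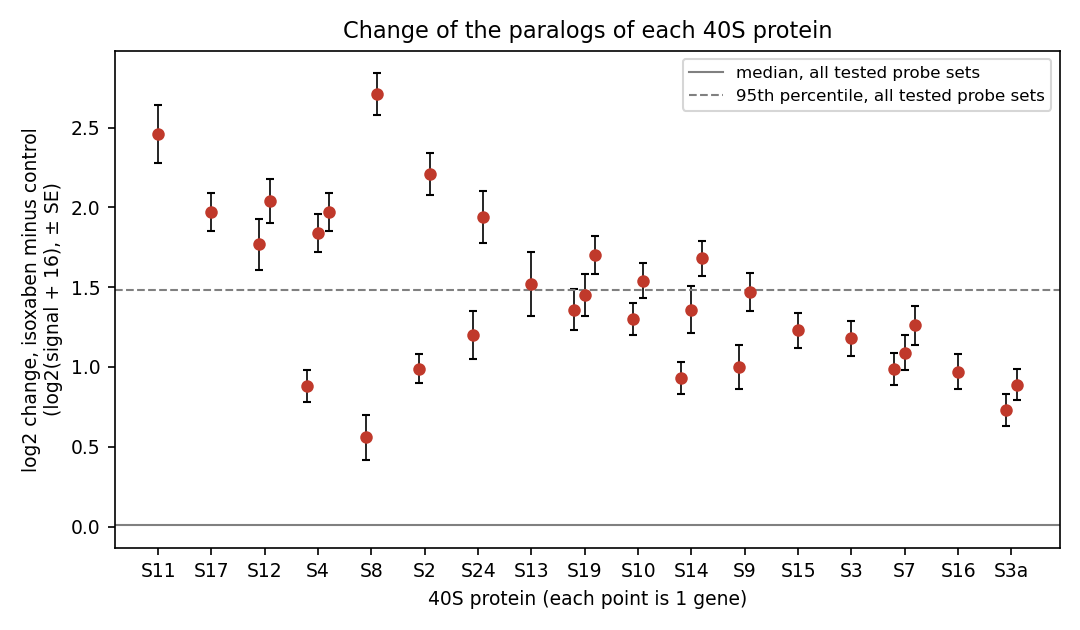
Log2 change, isoxaben minus control, of each of the 32 tested 40S genes (points, ± SE), by protein in order of the median change. All points lie above the median of all tested probe sets (0.00824, solid line), and the S8, S2 and S4 genes span more than 1 log2 unit within 1 protein.

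Genes of 1 protein differed from each other about as much as genes of different proteins. Over the 26 tested genes of the 11 proteins with several, 70.8% of the sum of squares of the log2 change lay within proteins, which held 60% of the degrees of freedom, and the standard deviation within a protein was 0.55. For each of the 19 pairs of paralogs, the log2 value of one gene minus that of the other was taken on every array and compared between groups. The isoxaben and control values of this difference did not overlap for 12 of the 19 pairs, or 63.2%. The same held for 66.7% of all pairs of tested probe sets, so the count is near the background. The smallest exact permutation p was 0.1, the smallest possible, and 0.158 after Benjamini-Hochberg adjustment over the 19 pairs, so no pair passed.

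The size of the difference is a description of these arrays. It had a median of 0.32 over the 19 pairs and was under 0.5 for 13. It was over 1 for 3 pairs. For S8, the within-array difference of AT5G59240 minus AT5G20290 was -3.37, -3.19 and -3.53 on isoxaben arrays, against -5.31, -5.49 and -5.72 on control arrays. The S8 genes therefore parted by 2.14 ± 0.15 (SE), with 2.60 at a pseudocount of 1 and 1.37 at 64.

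For S2, AT3G57490 minus AT2G41840 was -1.62, -1.69 and -2.13 on isoxaben arrays, against -3.20, -2.83 and -3.06 on control arrays, a difference of 1.22 ± 0.19. For S4, AT5G58420 minus AT2G17360 was -0.11, -0.30 and -0.38 on isoxaben arrays, against -1.42, -1.15 and -1.47 on control arrays, a difference of 1.08 ± 0.13. The groups did not overlap for these pairs. The other large S4 gene, AT5G07090, differed from AT2G17360 by 0.96 ± 0.16, and AT5G58420 and AT5G07090 differed from each other by 0.13 ± 0.23 with overlapping groups. That last difference was 0.35 without control replicate 2, 0 without control replicate 1 and 0.03 without control replicate 3.

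The proteins whose paralogs had the narrowest spread of changes were S3a and S10, although single pairs of S19, S7 and S4 genes differed by less. The S3a pair, AT3G04840 minus AT4G34670, was 0.02, 0.02 and 0.01 with isoxaben, against -0.02, -0.14 and -0.27 in control, a difference of 0.16 ± 0.07, which was 0.10 without control replicate 3. The S10 pair, AT4G25740 minus AT5G52650, was -1.08, -1.09 and -1.48 with isoxaben, against -1.50, -1.46 and -1.41 in control, a difference of 0.24 ± 0.13. The S10 difference was 0.37 without isoxaben replicate 3, 0.42 with quantile normalization, 0.15 in the second title set and 0.14 with a pseudocount of 64. The S10 groups overlapped and the S3a groups did not. A low difference does not show that paralogs changed alike.

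**Figure D3:**
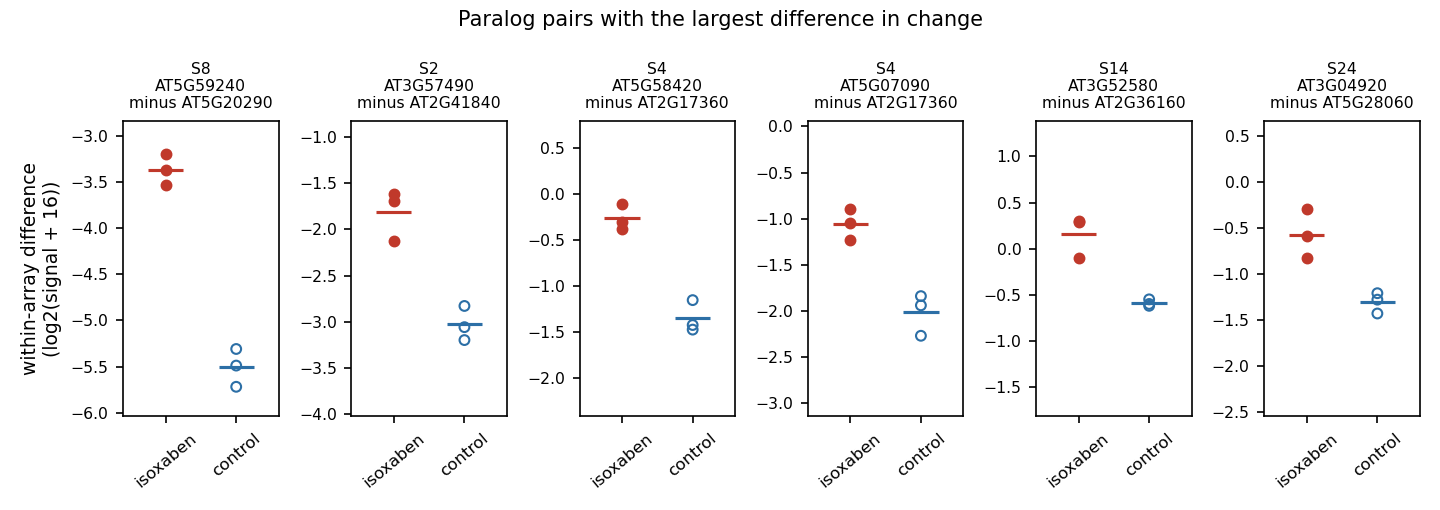
Within-array difference in log2(signal + 16) between 2 paralogs, for the 6 pairs with the largest difference in change, on isoxaben (filled, left) and control arrays (open, right), with group means as lines and axes of equal length. The groups do not overlap in any of the 6 pairs, but the pairs were picked by the size of this difference. Groups also do not overlap for 66.7% of all pairs of tested probe sets. The group means lie 2.14 apart for S8.

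The change was smaller for brighter probe sets within this family. Over the 32 genes, the mean log2 value on the 6 arrays and the log2 change had a Spearman correlation of -0.66, against -0.02 over all 13648 tested probe sets (across genes on the same arrays, which are not independent replicates). For 6 of the 32 genes the mean control signal was at least 1000, a limit chosen after the values were seen. Their log2 changes were 0.56 to 1.09, with a median of 0.94, beside a median of 1.50 for the other 26 genes. Among all 355 tested probe sets as bright in control cultures, 20.0% were called higher, the median log2 change was -0.27 and the highest was 1.36. Control signals also enter the log2 change, so picking probe sets by a high control signal favours lower changes. The parts of this choice and of signal compression in the smaller changes were not tested. Listed genes of the large, 60S subunit with a mean control signal of at least 1000 had log2 changes of 0.93 to 1.23. The median over all tested genes of that list was 1.45. Some dimmer genes of the list changed less, such as AT1G74270 (0.12) and AT3G51190 (-0.25). Whether the change followed brightness over that list was not tested.

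**Figure D4:**
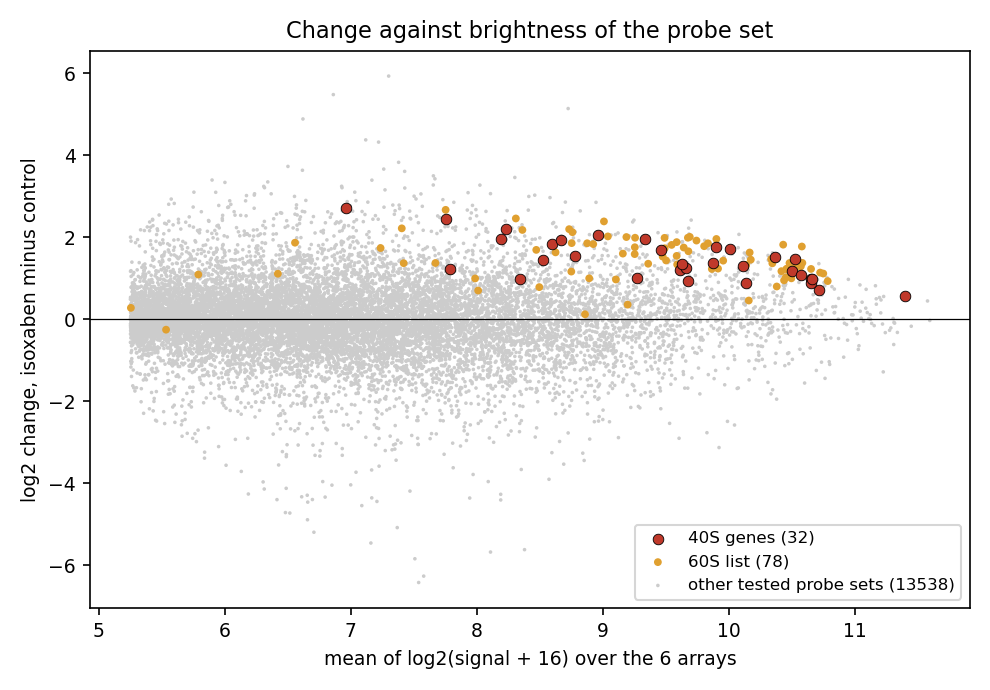
Log2 change, isoxaben minus control, against the mean of log2(signal + 16) over the 6 arrays, for the 40S genes (red), the 60S list (orange) and all other tested probe sets (grey). All 32 of the 40S genes lie above 0, and the brightest, the S8 gene AT5G20290, has the smallest change of them (0.56).

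The 6 probe sets that the annotation gives to several genes fell outside the choice by locus, and no value of theirs can be given to 1 gene. All 6 were called higher, beside 29.4% of all tested probe sets. Those of S2, S3, S16, S20 and S23 genes had log2 changes of 1.09 to 1.24. That of S17 genes had signals of 2172.0, 2036.4 and 2470.3 on isoxaben arrays, against 1509.5, 1542.5 and 1606.4 on control arrays, a log2 change of 0.51 ± 0.10, while the S17 gene with a probe set of its own rose by 1.97.

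Other genes of the translation apparatus were listed by locus as well. Of the 40S loci outside the 60, 11 were tested, 10 rose and none fell (median 1.56). AT1G23410 (2.90 ± 0.11) and AT3G56340 (1.75 ± 0.11) led. The control signals of AT1G23410, 19.9 to 21.2, lie under the filter signal, so it was tested only through its isoxaben signals and the size of its change depends on the pseudocount. AT2G45710 rose by 0.89 ± 0.11, and AT2G16360 (-0.31 ± 0.18; limma adjusted p = 0.158) did not pass. Of 78 tested genes of the large, 60S subunit, 74 rose and none fell (median 1.45), from AT4G25890 (2.67 ± 0.13) and AT3G06700 (2.46 ± 0.12) to AT1G74270 (0.12 ± 0.10) and AT3G51190 (-0.25 ± 0.27), neither of which passed. The share of genes called higher was 94.9% on the 60S list and 90.9% on that 40S list, beside 29.4% of all tested probe sets.

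The summed share of the 40S genes was 2.29 times higher with isoxaben, and that of the 60S list 2.63 times. The 60S sum was 3.31%, 3.41% and 3.71% of all signal on isoxaben arrays, against 1.26%, 1.39% and 1.31% on control arrays. As a share of both sums, the 40S genes held 30.3%, 30.5% and 30.8% with isoxaben, against 32.5%, 33.7% and 34.5% in control. The groups did not overlap (p = 0.1 in the same exact permutation test, n = 3 each). Without AT5G20290, the brightest 40S probe set, which was left out after the values were seen, the shares were 28.9% to 29.0% with isoxaben, against 30.0% to 31.5% in control. These sums run over the loci named here, so they do not give the ratio of the subunits.

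Of 34 listed ribosome biogenesis genes, 16 were named and tested, of which 15 rose and none fell (median 1.07). The share called higher was 93.8%, beside 29.4% of all tested probe sets. AT3G05060 (1.81 ± 0.14) and AT1G52930 (1.78 ± 0.12) led this list. IMP4, whose yeast namesake works in cutting the 18S precursor, rose by 0.44 ± 0.14. AT5G41190 (0.42 ± 0.23) did not pass.

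Translation factors moved in both directions. Of 43 listed, 13 were named and tested, of which 6 rose and 3 fell (median 0.18). The share called higher was 46.2%, beside 29.4% over all tested probe sets. The 3 of 13 called lower are near the 27.2% called lower over all tested probe sets. AT5G15610 (1.36 ± 0.14) and AT1G77840 (0.96 ± 0.15) led the rises, and AT5G54940 (-0.92 ± 0.12) and AT1G54290 (-0.59 ± 0.18) the falls. TOR kinase, which adjusts ribosome synthesis to nutrients, and its S6 kinases were unnamed here. Of the 2 tested genes of that list, RAPTOR1, a TOR partner, fell by 0.49 ± 0.11 and RAPTOR2 changed by 0.09 ± 0.15 without passing.

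Among 8 listed markers of dividing cells only 2 were measured, the mitotic kinases AUR1 (2.17 ± 0.11) and AUR2 (1.44 ± 0.13). Both were called higher, beside 29.4% of all tested probe sets. AUR2 passed the filter only through its isoxaben signals, since its mean control signal was 19.9. Their summed signal was 450.7 to 495.6 on isoxaben arrays, against 91.8 to 97.2 on control arrays. Their part in the rise of the 40S genes was not tested. None of the listed markers of photosynthetic, xylem or epidermal cells had a probe set named here, so the cell makeup of the cultures was not checked with them.

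The array control for 25S ribosomal RNA was higher on every isoxaben array, with signals of 27.3, 17.6 and 49.3 on isoxaben arrays, against 4.9, 6.7 and 7.2 on control arrays, and its part was not tested. Its signals on every control array and on isoxaben replicate 2 lay under the filter signal of 22.1. The labelling used an oligo-dT primer, so this control does not measure the amount of rRNA. RNA integrity, as the ratio of 3′ to 5′ signal, was 3.05 to 3.86 for ubiquitin on isoxaben arrays, against 2.70 to 3.89 on control arrays. The ranges for GAPDH overlapped too. The ratios for actin were higher, at 6.92 to 9.36 on isoxaben arrays, against 4.52, 7.78 and 9.19 on control replicates 1, 2 and 3. The median signal over all probe sets was 36.9 to 37.8 on isoxaben arrays, against 31.6 to 42.0 on control arrays.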

How the data were processed

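The deposited table holds 1 linear signal intensity per probe set on each of 6 arrays, scaled by the authors before deposit: without the top and bottom 2% of values, each array averages 100. How signals were computed from the probes is not stated in the sources used here. RNA was labelled as biotinylated cRNA from an oligo-dT primer, per the labels' protocols. The number of arrays limits the precision.

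Signals became log2(signal + 16) after removal of 64 array controls. The added 16 makes the changes of dim genes smaller. Probe sets under the 40th percentile of the mean (a signal of 22.1) were dropped. The comparison of isoxaben with control used lmFit and eBayes of limma 3.58.1 under R 4.3.3 (intensity trend, two-sided, no covariate). The fit was also run on simulated data in which far fewer probe sets changed than were called here. That run tried the code and is no check of the calls. Names came from the platform annotation through gene identifiers (13436 of 13513 probe sets of 1 gene matched in RefSeq). Sums, shares and paralog differences were compared with exact permutation tests. In no pair of arrays were more than 1.44% of the deposited signals exactly equal.

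Same-numbered arrays deviated together from their group means (correlations 0.207, 0.110 and 0.128), and the numbers were taken to pair the arrays in the alternatives that use pairs. The main fit and the exact permutation tests treated the arrays as unpaired. The differently numbered arrays of the second title set correlated as much (0.101 and 0.118), so the check separates the title sets but not replicates 2 and 3. The first pair has no number in its labels and was numbered 1. The members and the gene lists were chosen with earlier results of these data known. Genes named with all values were the 5 largest and the 5 smallest changes, the genes of the 4 proteins whose paralogs differed most and the 2 whose paralogs differed least, and those not tested. AT5G09510 was given with all values outside this rule, as the neighbour of the untested AT5G09500. From other lists the 2 largest and the 2 smallest changes were named. Alternatives were other normalizations, pseudocounts, filters, variance priors, array weights, blocks and subsets of arrays.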

Additional observations from a re-analysis of the deposited data

Results flagged for a closer look

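Array controls stood outside the test. The one for 25S rRNA had a mean signal of 31.4 ± 16.2 on isoxaben arrays and 6.27 ± 1.21 on control arrays (SD, n = 3 each; p = 0.1, the lowest a two-sided exact permutation test can reach here). It was singled out because a signal outside the main measurement was above the level in control samples. The control for 5S rRNA had 38.9 ± 8.63 on isoxaben and 9 ± 3.32 on control arrays (SD, n = 3 each). Both were under the filter signal of 22.1 on every control array, and the one for 25S rRNA also on isoxaben replicate 2.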

How the results depend on the processing

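The count of 40S genes called higher was 32, with none lower, in every alternative run. Among these were quantile normalization, centring on medians, pseudocounts of 1 and 64, no filter (33 tested) and the 60th percentile filter. Others were a single prior variance, array weights, and blocks for replicate and title set. The rest were a fit restricted to the second title set and the omission of each array in turn. Averaging the probe sets of each gene gave 32 as well. That run is no check, since each of the 33 genes had 1 probe set and its values stayed the same. The median log2 change of the 40S genes ran from 1.25 to 1.45. With the replicate block, 4250 probe sets were higher and 3913 lower over all tested, against 4011 and 3715 without it, and the block changed no call of a 40S gene. Over all alternatives, 3393 to 5258 probe sets were higher. Centring on medians put 47.9% of calls on the higher side, against 51.9%. Every named 40S gene kept its call in each alternative that tested it. The pairs of paralogs that did not overlap numbered 12 to 14 of 19. Non-overlap is easier to reach where arrays are left out, and the share over all pairs of probe sets was counted in the main setting only. With same-numbered arrays paired, another criterion was used: all 3 differences had one sign for 15 of the 19 pairs. Among 19 differences between paralogs, 5 values moved by more than the spread of replicates: that of S8 to 2.60 and 1.37 and that of S2 to 0.92 (from 1.22) with other pseudocounts, and that of the S19 genes AT5G61170 and AT5G15520 (0.25) to 0.09 with quantile normalization and 0.35 with a pseudocount of 64. Of the 19 differences, 10 moved by over 1.5 times in some alternative, 9 of them under 0.5 to begin with. The gain in the 40S share of signal, 0.862 percentage points, was 0.780 to 0.908 in the alternatives. Signals under the filter left AT5G09500 without a test.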

Other observations

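Nuclear genes of the plastid ribosome were listed beside the cytosolic ones. Of 19 loci only 2 had a probe set named here, and both were called higher, beside 29.4% of all tested probe sets. AT2G43030 had a mean signal of 614 ± 65.7 in isoxaben and 50.3 ± 16.5 in control cultures (SD, n = 3 each; log2 change 3.28 ± 0.19, SE). AT1G64510 had 98.3 ± 9.11 in isoxaben and 15.6 ± 13.7 in control cultures (SD, n = 3 each; log2 change 1.94 ± 0.26, SE), and its mean control signal lay below the filter signal of 22.1, so that change depends on the pseudocount.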
